A study of Mus musculus with 8 samples.

Results

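The annexins described here are the 8 genes Anxa1, Anxa2, Anxa3, Anxa4, Anxa5, Anxa6, Anxa7 and Anxa11, taken by gene symbol from a table of 34745 genes. All 8 were found once each, and all 8 had enough counts to be tested among 16576 genes. Messenger RNA was sequenced from mouse kidney at day 14, in wild-type animals per the labels. The groups were kidney labelled uIRI with MSC transplantation (uIRI+MSC, n = 3), kidney with the treatment uIRI alone (n = 3), and sham kidney (n = 2). In kidney research uIRI is the usual short form of unilateral ischaemia-reperfusion injury, and MSC that of mesenchymal stem cells, although the labels expand neither. Strain, sex and age of the mice, and the source, dose and timing of the transplanted cells, are not stated in the labels. Nor do they state whether replicate libraries are different mice, so p-values here measure only the spread between these samples, which may be technical.

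Annexins are cytosolic proteins that bind phospholipid membranes when calcium rises. They share a folded core, which holds the calcium sites, and differ in the N-terminal tail, which binds partner proteins such as members of the S100 family. They are known for patching torn plasma membranes, for vesicle traffic and for limiting inflammation. In the kidney they are found in tubule epithelium, stroma and leukocytes.

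The RefSeq table of promoter windows on GRCm38.p6, each running from 250 bases before to 50 bases after an annotated start, held 6 of the 8 genes on the listed symbols. It held 2 windows each for Anxa4 and Anxa7. The windows of Anxa1 and Anxa2 are shown because these genes had the largest rises among those with a window, that of Anxa5 because it was the annexin with the highest FPKM in all injured libraries, and that of Anxa11 because it was lower. They lie at chr19:20390622-20390921 (minus strand), chr9:69453433-69453732 (plus strand), chr3:36475838-36476137 (minus strand) and chr14:25841905-25842204 (plus strand). Capitals mark matches, on either strand, to any of 5 motifs that were searched. The motif of the TATA-binding protein was spelled TATAAA, that of the factor NF-Y was spelled CCAAT, and that of the factor Sp1, known as the GC box, was spelled GGGCGG. The AP-1 motif was spelled TGANTCA and the STAT motif was spelled TTCNNNGAA.
Anxa1: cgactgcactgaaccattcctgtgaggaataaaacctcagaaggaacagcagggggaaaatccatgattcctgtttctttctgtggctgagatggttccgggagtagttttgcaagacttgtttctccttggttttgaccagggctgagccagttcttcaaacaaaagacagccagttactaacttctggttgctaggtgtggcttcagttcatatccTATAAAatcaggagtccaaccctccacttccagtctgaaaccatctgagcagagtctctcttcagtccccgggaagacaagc
Anxa2: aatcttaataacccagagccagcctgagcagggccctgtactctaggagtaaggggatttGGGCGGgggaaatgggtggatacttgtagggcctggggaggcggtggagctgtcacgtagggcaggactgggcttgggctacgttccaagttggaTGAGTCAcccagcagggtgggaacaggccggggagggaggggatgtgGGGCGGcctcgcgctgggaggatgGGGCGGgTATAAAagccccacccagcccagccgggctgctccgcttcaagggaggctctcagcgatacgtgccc
Anxa5: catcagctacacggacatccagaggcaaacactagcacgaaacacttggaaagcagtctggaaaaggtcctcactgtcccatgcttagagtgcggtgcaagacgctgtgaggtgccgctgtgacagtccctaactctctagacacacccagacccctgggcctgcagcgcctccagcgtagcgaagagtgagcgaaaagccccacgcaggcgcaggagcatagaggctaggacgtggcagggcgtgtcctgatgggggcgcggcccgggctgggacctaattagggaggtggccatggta
Anxa11: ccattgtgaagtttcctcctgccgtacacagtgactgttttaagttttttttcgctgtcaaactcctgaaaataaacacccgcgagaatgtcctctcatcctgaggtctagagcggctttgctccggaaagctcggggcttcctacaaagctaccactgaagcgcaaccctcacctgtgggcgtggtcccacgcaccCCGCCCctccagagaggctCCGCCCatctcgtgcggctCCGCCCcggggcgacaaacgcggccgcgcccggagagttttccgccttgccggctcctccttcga

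The TATAAA motif was matched in the windows of Anxa1 (bases 219 to 224, counted from 1 at the 5′ end) and Anxa2 (bases 234 to 239), and in none of the windows of the other 4 genes. Of 32817 promoter windows in the table, 13.6% held such a match. Anxa2 also held an AP-1 match at bases 156 to 162, a motif found in 7.81% of windows, and 3 GC boxes. Anxa11 held 3 GC boxes, and GC boxes were matched in 35.6% of all windows. They were also matched in a window of Anxa4 and in each window of Anxa7. The Anxa5 window held no match to any of the motifs. The CCAAT motif (37.4% of windows) and the STAT motif (8.29%) were matched in no annexin window. A match describes the letters of a window and not a bound site.

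Total counts ran from 11592986 in uIRI+MSC 3 to 24300112 in uIRI 1, and the fewest counts of any annexin in a library were the 147 of Anxa1 in sham 1. Replicate libraries differed by 18.7 to 72.9 times the variance that counting alone gives. This is an average over genes of all kinds, taken without TMM scaling, and does not describe the annexins by themselves. On the third principal component, with 6.57% of the variance, uIRI+MSC 3 lay at -62.3, against -8.32 to 15.1 for the rest. On the second, with 8.69%, uIRI+MSC 2 lay at -54.1 and uIRI 1 at 41.2, against -25.9 to 27.2 for the rest. Of the labelled tissue, all 10 proximal tubule markers were found, with a summed level of 9789 to 14368 CPM in uIRI+MSC, 1812 to 6705 CPM in uIRI and 38372 to 51516 CPM in sham. CPM are counts per 1000000 counts of a library after TMM scaling, a scaling that sets the bulk of genes equal between libraries. The scaling matters here, because scaling by library size alone shifted the median over all genes to 0.73 (log2) for uIRI against sham and 0.55 for uIRI+MSC against sham, where TMM gave 0.06 and 0.03. For uIRI+MSC against uIRI the medians were -0.16 with library size alone and -0.01 with TMM.

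Injured kidney held more annexin mRNA than sham. In uIRI, 6 of the 8 genes rose (Anxa1, Anxa2, Anxa3, Anxa4, Anxa5 and Anxa6), Anxa11 fell under TMM scaling but not with library size alone, and Anxa7 did not pass an adjusted p of 0.05 in edgeR's quasi-likelihood test. The 8 genes together summed to 1635 to 1813 CPM in uIRI and 661 to 707 CPM in sham. Their median log2 fold change was 1.57, beside 0.06 for all tested genes. Across all tested genes 54.6% passed (60.2% at an unadjusted p under 0.05), with 28.3% higher and 26.3% lower, 4683 against 4361 genes, a split that became 9044 against 1989 with library size alone. The uIRI and sham libraries did not overlap in 7 of the 8 annexins, 6 higher and 1 lower, whereas 40.6% of all tested genes lay wholly higher and 36.5% wholly lower. In bulk tissue, fewer cells of a type and less RNA per cell cannot be told apart.

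**Figure D1:**
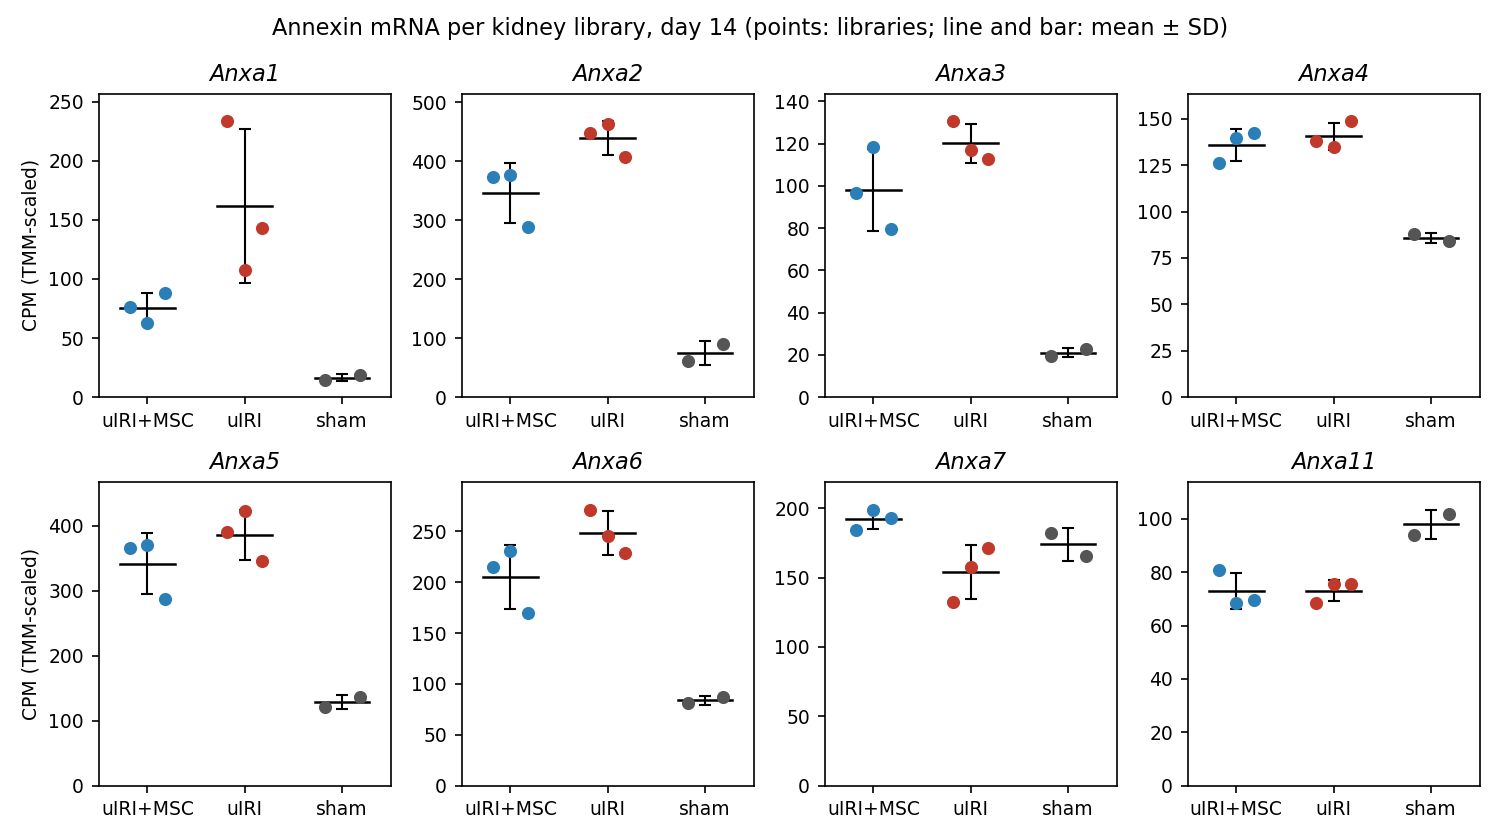
TMM-scaled CPM of each annexin gene in the 8 kidney libraries, 1 panel a gene. Points are libraries, lines are group means and bars are SD (n = 3, 3 and 2 for uIRI+MSC, uIRI and sham). For Anxa1 to Anxa6 all uIRI+MSC and uIRI points sit above both sham points, and for Anxa11 below them on this TMM scale.

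Anxa1 encodes a glucocorticoid-induced protein that restrains phospholipase A2 and, once secreted, signals through formyl peptide receptors. Its gene (ENSMUSG00000024659) spans 20373428 to 20390944 on the minus strand of chromosome 19 in GRCm38. Anxa1 stood at 75.9, 62.6 and 88.3 CPM in uIRI+MSC 1, 2 and 3, at 234, 107 and 144 CPM in uIRI 1, 2 and 3, and at 14.3 and 18.4 CPM in sham 1 and 2. The 3 groups did not overlap, with uIRI highest and sham lowest. The group means were 75.6 ± 12.8 CPM in uIRI+MSC (SD, n = 3), 161 ± 65.0 CPM in uIRI (n = 3) and 16.3 ± 2.92 CPM in sham (n = 2). In uIRI it was 9.87-fold above sham, the largest rise of the 8, at 3.30 ± 0.36 on the log2 scale (± SE throughout; edgeR adjusted p = 0.000144). The uIRI libraries were uneven for this gene, with uIRI 1 well above uIRI 2 and uIRI 3.

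Beside its Anxa1 level, uIRI 1 had the highest summed fibroblast markers (8806 CPM, against 5224 in uIRI 2 and 3726 in uIRI 3). The same held for macrophage markers (4219, against 2703 and 3271 CPM). Markers of urothelium, the lining of the renal pelvis, were also highest there (73.1, against 17.2 and 35.6 CPM). So were mesothelium markers (14.9, against 7.26 and 11.8 CPM). Proximal tubule markers were lowest in uIRI 1 (1812, against 6705 and 4434 CPM). Between uIRI 2 and uIRI 3, fibroblast markers ran opposite to Anxa1 (107 and 144 CPM). All 8 fibroblast markers, all 8 macrophage markers, all 5 T cell markers, all 10 injured tubule markers and the 4 tested of 8 neutrophil markers were higher in uIRI than in sham, and all 10 proximal tubule markers were lower. Of all tested genes 28.3% passed as higher and 26.3% as lower. Summed levels in uIRI against sham were 3726 to 8806 against 349 to 533 CPM for fibroblast, 2703 to 4219 against 195 to 234 CPM for macrophage, and 7436 to 9831 against 1237 to 1701 CPM for injured tubule. For T cells they were 56.2 to 73.1 against 8.26 to 8.56 CPM, and for neutrophils 34.2 to 46.6 against 1.36 to 4.05 CPM, where the granule gene Mpo had no count in any library. The part of these cell types in the annexin changes was not tested.

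Anxa2 encodes the annexin that pairs with S100A10 on membranes, where the complex binds plasminogen and its activator. The gene (ENSMUSG00000032231) lies at 69453620 to 69491795 on the plus strand of chromosome 9. Its level was 373, 377 and 288 CPM in uIRI+MSC 1, 2 and 3, 448, 462 and 408 CPM in uIRI 1, 2 and 3, and 60.8 and 90.0 CPM in sham 1 and 2. No group overlapped another for this gene, and the sham libraries lay far below the rest. Anxa2 rose 5.83-fold in uIRI over sham, a log2 fold change of 2.54 ± 0.22 (adjusted p = 6.41e-05). The uIRI libraries agreed closely, at 439 ± 28.4 CPM (SD, n = 3), against 75.4 ± 20.6 CPM in sham (n = 2).

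S100a10, which encodes the Anxa2 partner also called p11, rose too. Its own levels were 149, 163 and 91.8 CPM in uIRI+MSC, 133, 160 and 128 CPM in uIRI, and 69.5 and 51.4 CPM in sham. Its log2 fold change in uIRI over sham was 1.21 ± 0.26 (adjusted p = 0.00427). On a per-length scale (FPKM, fragments scaled by gene length and library total), the ratio of S100a10 to Anxa2 within a library was 0.805 to 1.09 in uIRI+MSC, 0.745 to 0.872 in uIRI and 2.88 and 1.44 in sham. In sham kidney, then, S100a10 mRNA exceeded Anxa2 mRNA, while in uIRI the order was turned. The library uIRI+MSC 3, which stood apart on the third principal component, had the lowest S100a10 of the injured groups.

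Anxa5 encodes the annexin that coats exposed phosphatidylserine and is used as a probe for dying cells. The gene (ENSMUSG00000027712) lies on the minus strand of chromosome 3 at 36448923 to 36475894. Anxa5 measured 366, 371 and 288 CPM in uIRI+MSC 1, 2 and 3, 390, 423 and 346 CPM in uIRI 1, 2 and 3, and 121 and 137 CPM in sham 1 and 2. The 2 injured groups overlapped, and both lay above sham. Anxa5 was 2.99-fold higher in uIRI than in sham (log2 1.58 ± 0.18, adjusted p = 0.000173).

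Anxa6 encodes the annexin with a duplicated core, which acts in endocytosis and cholesterol transport. It lies on the minus strand of chromosome 11 at 54979108 to 55033445 (ENSMUSG00000018340). Levels were 215, 231 and 170 CPM in uIRI+MSC, 272, 246 and 229 CPM in uIRI, and 80.8 and 87.3 CPM in sham. Of the injured libraries uIRI+MSC 3 was the lowest, as it was for Anxa2, Anxa3 and Anxa5. The rise in uIRI over sham was 2.96-fold (log2 1.57 ± 0.17, adjusted p = 0.000159), close in size to that of Anxa5.

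Anxa3, an annexin known from human neutrophils, lies on the plus strand of chromosome 5 at 96793339 to 96845966 (ENSMUSG00000029484). It measured 96.4, 119 and 79.7 CPM in uIRI+MSC, 131, 117 and 113 CPM in uIRI, and 19.6 and 22.6 CPM in sham. The injured groups overlapped, and every injured library lay far above both sham libraries. The log2 fold change in uIRI over sham was 2.51 ± 0.20 (5.69-fold, adjusted p = 4.54e-05), the smallest adjusted p of the 8.

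Anxa4, an annexin of epithelial cells, had the smallest rise. Its gene (ENSMUSG00000029994) spans 86736840 to 86793584 on the minus strand of chromosome 6. Levels of 126, 139 and 143 CPM in uIRI+MSC and 138, 135 and 149 CPM in uIRI overlapped, against 87.8 and 84.1 CPM in sham. It was 1.64-fold higher in uIRI than in sham (log2 0.71 ± 0.12, adjusted p = 0.00148), and its log2 change was 1.38 with library size alone.

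Anxa7 and Anxa11 encode the annexins with long N-terminal tails. Anxa7, once called synexin, binds sorcin, and Anxa11 binds the calcium sensor ALG-2 and S100A6. Anxa7 (ENSMUSG00000021814, chromosome 14, 20455261 to 20480133, minus strand) stood at 184, 198 and 193 CPM in uIRI+MSC 1, 2 and 3, 133, 158 and 171 CPM in uIRI 1, 2 and 3, and 182 and 166 CPM in sham. The uIRI and sham libraries overlapped, and the log2 fold change was -0.18 ± 0.14 (adjusted p = 0.329). With library size alone it turned to 0.49 (adjusted p = 0.0106), so its direction rests on the scaling.

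Anxa11 (ENSMUSG00000021866, chromosome 14, 25842156 to 25886804, plus strand) was the annexin lower than sham. Its level was 80.9, 68.6 and 69.5 CPM in uIRI+MSC, 68.5, 75.5 and 75.4 CPM in uIRI, and 94.0 and 102 CPM in sham. No injured library reached either sham library. The log2 fold change in uIRI over sham was -0.42 ± 0.13 (adjusted p = 0.0216), a fall to 0.747 of the sham level. With library size alone the value was 0.24 (adjusted p = 0.142). The call was also lost with no filter on low counts (-0.40, adjusted p = 0.0505), without uIRI 1 (-0.37, adjusted p = 0.0644), without sham 1 (-0.46, adjusted p = 0.0731) and without sham 2 (-0.34, adjusted p = 0.151), and with the replicate number as a block (-0.41, adjusted p = 0.0704).

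**Figure D2:**
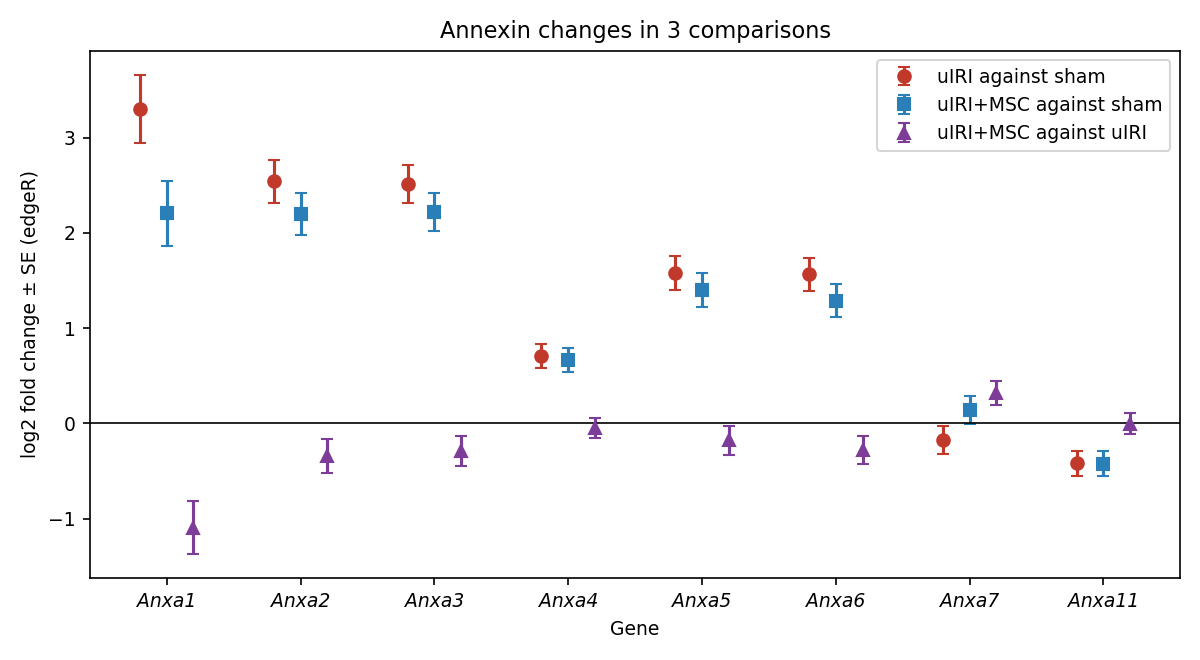
Log2 fold change ± SE of each annexin gene in 3 comparisons, fitted by edgeR to all 8 libraries. Against sham, uIRI and uIRI+MSC have positive values for Anxa1 to Anxa6, from 0.66 to 3.30, and Anxa11 lies at -0.42 in both, against 0.24 and 0.09 when scaled by library size alone. Anxa1 has the lowest value in uIRI+MSC against uIRI, at -1.10.

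MSC transplantation on top of injury moved no annexin past the threshold. The comparison of uIRI+MSC with uIRI asks what transplantation changed in injured kidney, and edgeR called 0 of 16576 genes (0% of those tested), with 3418 genes (20.6%) at an unadjusted p under 0.05. DESeq2 called 1364 genes and limma-voom 0. Of the 8 annexins, 7 had a negative log2 change and Anxa7 a positive value, with a median of -0.23 beside -0.01 for all tested genes. Anxa1 had the largest difference, at a log2 fold change of -1.10 ± 0.28, a 2.14-fold lower level in uIRI+MSC (unadjusted p = 0.00351, adjusted p = 0.117 by edgeR). DESeq2 called it (-1.12 ± 0.29, adjusted p = 0.00586). Over the other alternatives its adjusted p ran up to 0.247, and without uIRI 1 the change was -0.73 (adjusted p = 0.201).

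On the TMM scale the libraries of uIRI+MSC and uIRI did not overlap for Anxa1 and Anxa2, both lower, and for Anxa7, higher. Among all tested genes 12.7% lay wholly lower and 14.1% wholly higher. Anxa2 changed by a log2 value of -0.35 ± 0.18 (adjusted p = 0.317) and Anxa7 by 0.32 ± 0.13 (adjusted p = 0.218), neither past the threshold. With library size alone the Anxa7 value was 0.17 (adjusted p = 0.401 by edgeR). Anxa3 (-0.29 ± 0.16), Anxa6 (-0.28 ± 0.15) and Anxa5 (-0.18 ± 0.15) overlapped between the groups. Anxa4 (-0.05 ± 0.11) and Anxa11 (-0.0023 ± 0.11) lay nearest to 0. A p above the threshold does not show that the groups were alike.

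Summed fibroblast markers were 2229 to 4045 CPM in uIRI+MSC and 3726 to 8806 CPM in uIRI, with all 8 log2 changes negative and none past the threshold. Macrophage markers summed to 1491 to 2183 CPM in uIRI+MSC and 2703 to 4219 CPM in uIRI, again with all 8 negative and none past it. Proximal tubule markers summed to 9789 to 14368 CPM in uIRI+MSC and 1812 to 6705 CPM in uIRI. All 10 of their log2 changes were positive, and none passed the threshold. The macrophage sums and the proximal tubule sums did not overlap between the groups. Nor did those of mesothelium and of endothelium (433 to 542 CPM in uIRI+MSC and 549 to 572 CPM in uIRI), both by a narrow margin. All 6 endothelial and all 5 urothelium markers had negative log2 changes, and none passed. Injured tubule markers were also higher in sum with MSC transplantation, at 12870 to 18225 CPM in uIRI+MSC and 7436 to 9831 CPM in uIRI, without overlap. Of these 10 genes 6 had a positive and 4 a negative log2 change, and none passed. Urothelium markers were uneven in every group, at 1.14 to 29.6 CPM in uIRI+MSC, 17.2 to 73.1 CPM in uIRI, and 2.53 and 60.0 CPM in sham 1 and 2. Sham 2, rich in these markers, had 18.4 CPM of Anxa1 and 90.0 CPM of Anxa2, against 14.3 and 60.8 CPM in sham 1. Anxa3, Anxa5, Anxa6 and Anxa11 were also higher in sham 2, and Anxa4 and Anxa7 were lower. The log2 change of Anxa2 in uIRI against sham was 2.31 without sham 1 and 2.88 without sham 2. Mesothelium markers ran from 0.715 to 7.14 CPM in uIRI+MSC, 7.26 to 14.9 CPM in uIRI and 0.291 to 8.66 CPM in sham. The part of these cells in the lower Anxa1 level was not tested.

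Kidneys with MSC transplantation still held more annexin mRNA than sham. In uIRI+MSC, 6 of the 8 annexins were higher than in sham, Anxa11 was lower under TMM scaling but not with library size alone, and Anxa7 did not pass. Across all tested genes 42.4% passed (51.1% at an unadjusted p under 0.05), 22.1% higher and 20.3% lower. The groups did not overlap in any of the 8 annexins, 7 higher and 1 lower, where 33% of all tested genes lay wholly higher and 31.2% wholly lower. Anxa3, Anxa1 and Anxa2 led, at log2 fold changes of 2.22 ± 0.20 (adjusted p = 0.00012), 2.21 ± 0.34 (adjusted p = 0.00138) and 2.197 ± 0.22 (adjusted p = 0.000215). Anxa5 followed at 1.40 ± 0.18 (adjusted p = 0.000572), Anxa6 at 1.29 ± 0.17 (adjusted p = 0.000708) and Anxa4 at 0.66 ± 0.12 (adjusted p = 0.00338). The median over the 8 genes was 1.35, beside 0.03 for all tested genes.

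Anxa7 changed by 0.14 ± 0.15 in uIRI+MSC over sham (adjusted p = 0.461), and by 0.66 with library size alone (adjusted p = 0.00388). Anxa11 changed by -0.42 ± 0.13 (adjusted p = 0.0272), by 0.09 with library size alone, and without a call when uIRI+MSC 2 (-0.38, adjusted p = 0.0836), uIRI+MSC 3 (-0.35, adjusted p = 0.0615), sham 1 (-0.45, adjusted p = 0.102) or sham 2 (-0.33, adjusted p = 0.188) was left out. It was likewise lost with no filter (-0.41, adjusted p = 0.0592), with only the 2 groups in the fit (adjusted p = 0.0582) and with the replicate number as a block (-0.42, adjusted p = 0.0833). This comparison shares its sham libraries with uIRI against sham and its uIRI+MSC libraries with uIRI+MSC against uIRI, so the 3 sets of values are not independent.

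The make-up of annexin mRNA also differed between groups. By FPKM, which allows levels of different genes to be set side by side within a library, Anxa5 ranked first in all injured libraries and in sham 2, while Anxa7 ranked first in sham 1. Anxa5 made up 32.8 to 35.5% of the summed FPKM of the 8 genes in uIRI+MSC, 31.9 to 36.1% in uIRI and 28.1 and 29.6% in sham. Anxa2 took 18.3 to 20.2% in uIRI+MSC, 20.7 to 22.0% in uIRI, and 7.86 and 10.8% in sham. Anxa7 held 12.7 to 15.7% in uIRI+MSC, 7.80 to 11.3% in uIRI, and 30.0 and 25.5% in sham, with no overlap between any groups.

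Anxa1 took 3.58 to 6.10% in uIRI+MSC, 5.56 to 11.7% in uIRI, and 2.00 and 2.41% in sham. Anxa11 took 2.92 to 3.58% in uIRI+MSC and 2.55 to 3.14% in uIRI, and ranked last in every injured library, against 9.81 and 9.92% in sham. The share of Anxa6 moved little, at 14.5 to 16.4% in uIRI+MSC, 15.8 to 16.8% in uIRI, and 14.0 and 14.1% in sham. FPKM were scaled by library size, so their levels are compared here only within a library, apart from a check of Anxa7. The ratio of Anxa2 to Anxa7 FPKM was 1.17 to 1.59 in uIRI+MSC, 1.86 to 2.65 in uIRI, and 0.262 and 0.426 in sham. This ratio does not depend on the scaling between libraries, and the 3 groups did not overlap in it. Between uIRI and uIRI+MSC this follows from the TMM-scaled levels already given, as Anxa2 and Anxa7 each separated them there, in opposite directions. In FPKM, scaled by library size, Anxa7 overlapped, at 60.7 to 66.3 in uIRI+MSC and 50.6 to 61.7 in uIRI. Of the other ratios between members, Anxa1 to Anxa5 and Anxa1 to Anxa2 overlapped between uIRI and uIRI+MSC. Those of Anxa2 to Anxa5 and Anxa7 to Anxa11 did not.

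**Figure D3:**
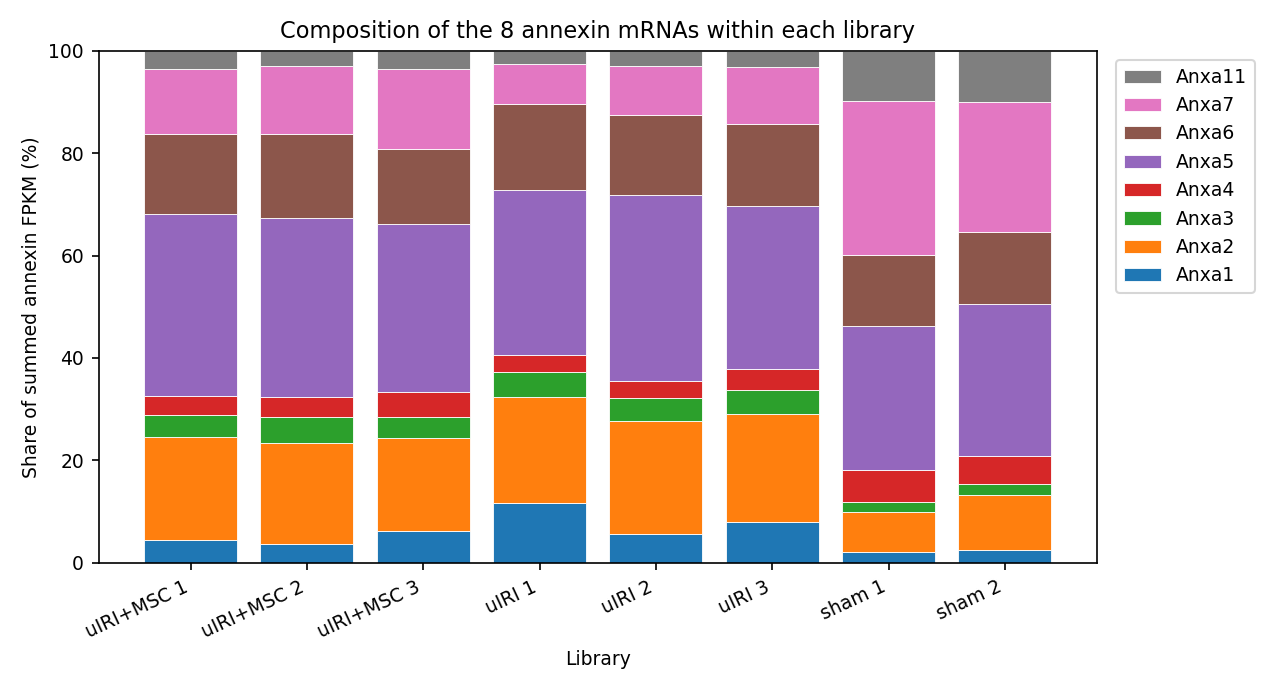
Share of each annexin gene in the summed FPKM of the 8 genes, in percent, for each kidney library. Anxa7 and Anxa11 take larger shares in both sham libraries than in the 6 injured libraries, and Anxa2 a smaller share.

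The remaining annexin genes of the table were scarce. Anxa8, an annexin of stratified and other epithelia, stood at 0.628, 0.572 and 4.11 CPM in uIRI+MSC, 7.74, 2.42 and 6.45 CPM in uIRI, and 0.972 and 2.30 CPM in sham. It did not pass in uIRI against sham (log2 1.75 ± 0.91, adjusted p = 0.136) or in uIRI+MSC against uIRI (-1.72 ± 0.77, adjusted p = 0.25). Anxa13, an annexin of gut and kidney epithelium, fell under TMM scaling. It rests on 22 to 78 counts a library, and its change with library size alone was not examined. It had 2.05, 1.64 and 1.85 CPM in uIRI+MSC, 2.63, 2.09 and 1.98 CPM in uIRI, and 5.54 and 5.06 CPM in sham, log2 changes of -1.24 ± 0.26 for uIRI against sham (adjusted p = 0.00367) and -1.51 ± 0.27 for uIRI+MSC against sham (adjusted p = 0.00256). Anxa9 did not pass in any comparison, and Anxa10 had 0 counts in every library.

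Genes that work with annexins were followed in 5 lists of 39 genes, of which 35 were tested. Between uIRI and sham, 21 of them rose and 5 fell, while 9 stayed short of the threshold (median 1.02 on the log2 scale). Over all tested genes 28.3% rose and 26.3% fell, 54.6% in all, with a median of 0.06. In uIRI+MSC against sham 19 rose and 3 fell, and 13 missed the threshold (median 0.76), where 22.1% of all tested genes rose and 20.3% fell, 42.4% in all, with a median of 0.03. None passed in uIRI+MSC against uIRI (median -0.22).

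Of the 7 annexin-binding proteins 5 rose in uIRI over sham, Pdcd6 fell, and Sri, which encodes the Anxa7 ligand sorcin, did not pass (-0.10 ± 0.15). The share of all tested genes that rose was 28.3%, and 54.6% passed in either direction. S100a6, which encodes the Anxa11 ligand calcyclin, had 88.8, 52.2 and 20.7 CPM in uIRI+MSC, 120, 107 and 101 CPM in uIRI, and 5.15 and 9.58 CPM in sham. It rose by a log2 value of 3.89 ± 0.60 in uIRI (adjusted p = 0.000747). Its levels in uIRI+MSC were widely spread, and uIRI+MSC 3 was the lowest. S100a11, the gene of an Anxa1-binding S100 protein, stood at 145, 122 and 139 CPM in uIRI+MSC, 166, 165 and 163 CPM in uIRI, and 54.0 and 47.4 CPM in sham, a rise of 1.70 ± 0.14 (adjusted p = 4.85e-05). Ahnak, the gene of a large scaffold that binds the Anxa2 complex, rose by 1.66 ± 0.24 (adjusted p = 0.000558). Pdcd6, which encodes ALG-2, fell by 0.38 on the log2 scale (SE 0.13, adjusted p = 0.0321), which is less than the distance between the 2 scalings of the libraries.

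The formyl peptide receptor genes were low but higher than in sham. Fpr1 had 23, 19 and 8 counts in uIRI+MSC 1, 2 and 3, 64, 31 and 38 counts in uIRI 1, 2 and 3, and 0 and 1 in sham 1 and 2. Its ratio over sham was 36.0 in uIRI, with a 95% counting interval of 6.35 to 1432, and 21.2 in uIRI+MSC, with an interval of 3.64 to 856. Fpr2, the receptor gene for Anxa1, measured 1.88, 1.57 and 1.18 CPM in uIRI+MSC, 3.50, 1.98 and 2.83 CPM in uIRI, and 0.0972 and 0.276 CPM in sham. Its rise in uIRI over sham was 3.83 ± 0.57 (adjusted p = 0.00061). Pla2g4a, which encodes the cytosolic phospholipase A2 that Anxa1 restrains, rose by 1.91 ± 0.19 (adjusted p = 9.67e-05), and the uIRI+MSC libraries (25.4 to 32.7 CPM) lay wholly below those of uIRI (40.8 to 55.1 CPM) without passing (adjusted p = 0.111). Fpr3 had 0 counts in every library. Counting intervals cover counting error only.

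Plat, the gene of the tissue plasminogen activator that the Anxa2 complex binds, rose by 1.93 ± 0.25 in uIRI over sham (adjusted p = 0.000339). Its levels were 306, 355 and 277 CPM in uIRI+MSC, 282, 308 and 201 CPM in uIRI, and 55.7 and 82.4 CPM in sham. Plgrkt, a plasminogen receptor gene, rose by 0.78 ± 0.15 (adjusted p = 0.00248). Plg itself had at most 10 counts in any library and was not tested.

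Among 13 tested membrane repair genes of 14 listed, 6 rose, 2 fell and 5 did not pass in uIRI against sham. That 8 of 13 passed is near the 54.6% of all tested genes, so the count is no result about the list. Myof, which encodes the ferlin myoferlin, had 325 to 353 CPM in uIRI+MSC, 335 to 412 CPM in uIRI, and 42.7 and 74.2 CPM in sham, a rise of 2.71 ± 0.25 in uIRI (adjusted p = 7.58e-05). The calpain gene Capn1 rose by 1.02 ± 0.15 (adjusted p = 0.000595). Smpd1, the gene of acid sphingomyelinase, changed by -1.08 ± 0.15 (adjusted p = 0.000506). Of 10 tested genes that expose or recognise phosphatidylserine 5 rose and 2 fell, beside 28.3% and 26.3% of all tested genes. The genes that fell were Gas6 (-0.69 ± 0.16, adjusted p = 0.00695) and the scavenger receptor gene Stab2 (-1.48 ± 0.27, adjusted p = 0.00179). The fall of Gas6 is about the distance between the 2 scalings of the libraries. Their medians over all genes were 0.06 with TMM and 0.73 with library size alone. Axl, a receptor of the bridging ligand Gas6, rose by 3.40 ± 0.18 (adjusted p = 2.34e-05), the bridging ligand gene Pros1 by 2.53 ± 0.22 (adjusted p = 5.62e-05) and the scavenger receptor gene Stab1 by 2.59 ± 0.25 (adjusted p = 9.3e-05).

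**Figure D4:**
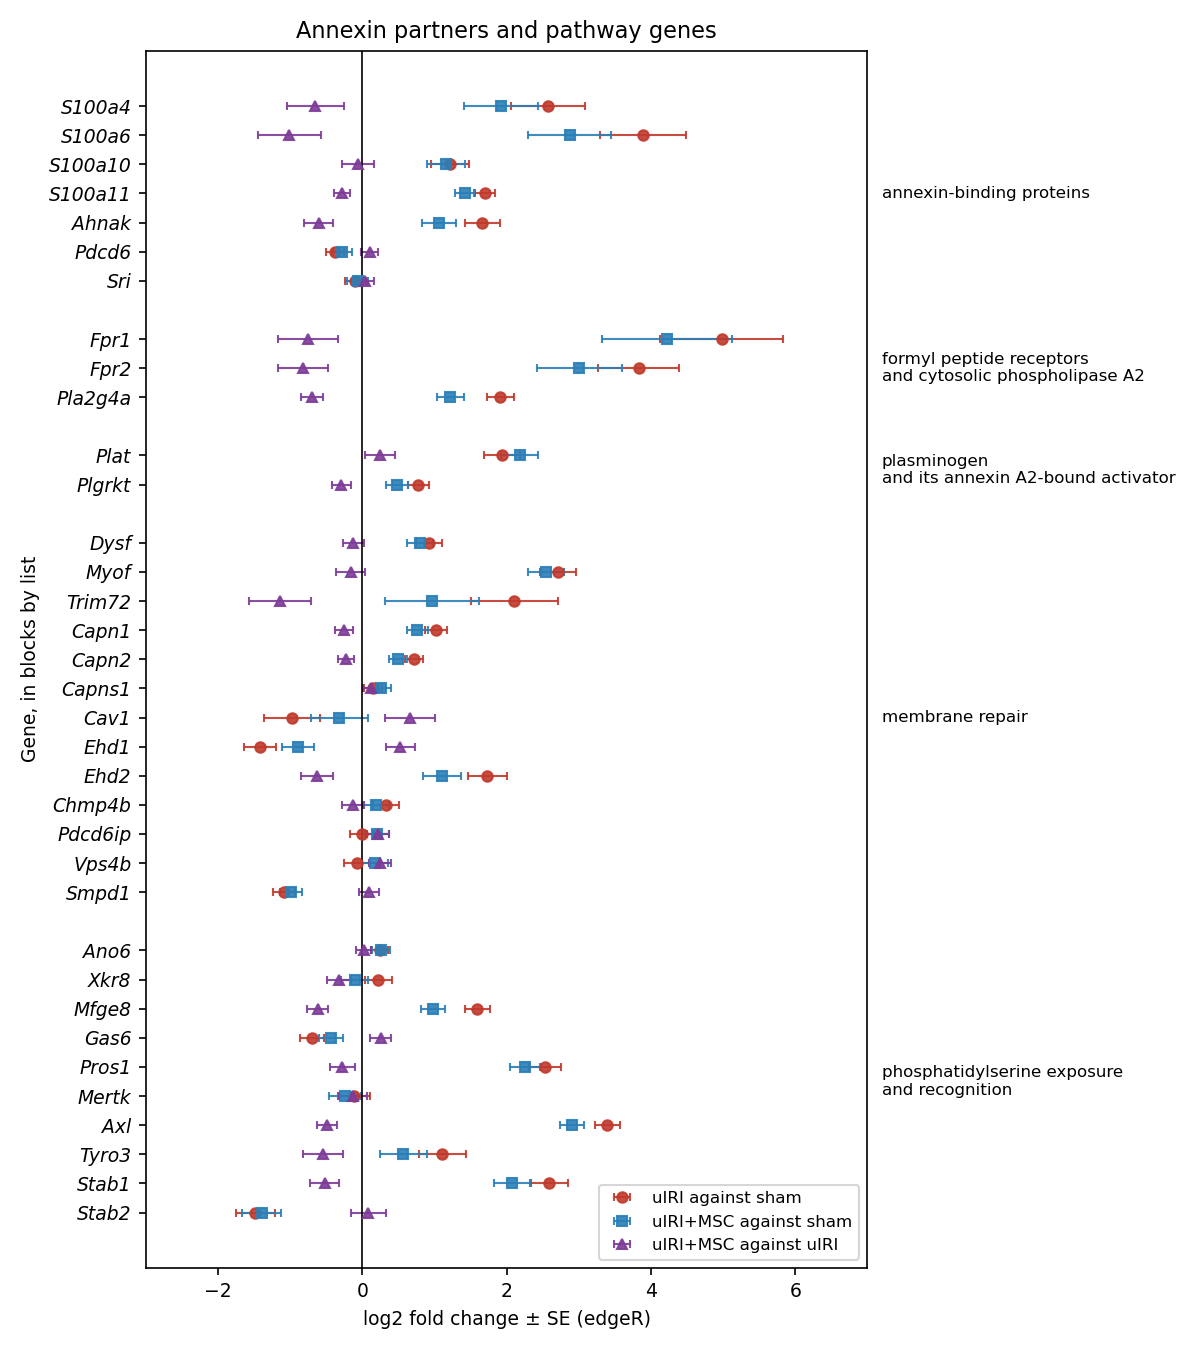
Log2 fold change ± SE (edgeR) of the 35 tested genes of 5 lists around annexin function, in 3 comparisons. Values against sham reach 4.98 for Fpr1 in uIRI, while all values of uIRI+MSC against uIRI lie between -1.14 and 0.66.

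The genes with the most similar profile were sought among 7295 tested genes with a mean FPKM of at least 5. Similarity was the Euclidean distance between log2 CPM over the 8 libraries, each gene centred on its mean. The libraries fall into 3 groups, so a short distance can come from like differences between groups alone. Nearest to Anxa1 were the collagen VI genes Col6a1 (distance 0.617) and Col6a2 (0.630) and the stromal gene Islr (0.621). These 3 were highest in uIRI 1, as Anxa1 was. Col6a1 stood at 197, 127 and 204 CPM in uIRI+MSC, 431, 237 and 326 CPM in uIRI, and 22.3 and 34.0 CPM in sham.

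Anxa2 and Anxa3 lay near each other (0.367) and shared Serpinb6b as nearest other gene, at 0.343 and 0.339. Next to Anxa2 were Flna, the gene of the actin cross-linker filamin A (0.414), and Akna (0.418), and next to Anxa3 were the Arp2/3 subunit gene Arpc1b (0.385) and Efhd2 (0.406). Anxa5 and Anxa6 were also a pair (0.255). Nearest to Anxa5 were the non-muscle myosin gene Myh9 (0.192), Ecscr (0.249) and Homer3 (0.265), and to Anxa6 Tmem43 (0.218), Vat1 (0.257) and Map7d1 (0.264).

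Anxa1 lay farthest from the other members, with Anxa2 as its nearest at 1.40. This distance grows with the size of a change, and Anxa1 had the largest rise in uIRI over sham. The nearest member to Anxa4 was Anxa7, at 1.00, and Anxa7 and Anxa11 were nearest to each other, at 0.731. Anxa4 was nearest to Cap1 (0.188), Dhx57 (0.194) and Rbm22 (0.208). For Anxa7 the nearest genes were Map3k4 (0.123), Hmg20b (0.133) and Fam21 (0.222), and for Anxa11 they were Caskin2 (0.162), Vta1 (0.165) and Cops4 (0.171). The profiles of these members span a narrow range, which keeps distances small.

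**Figure D5:**
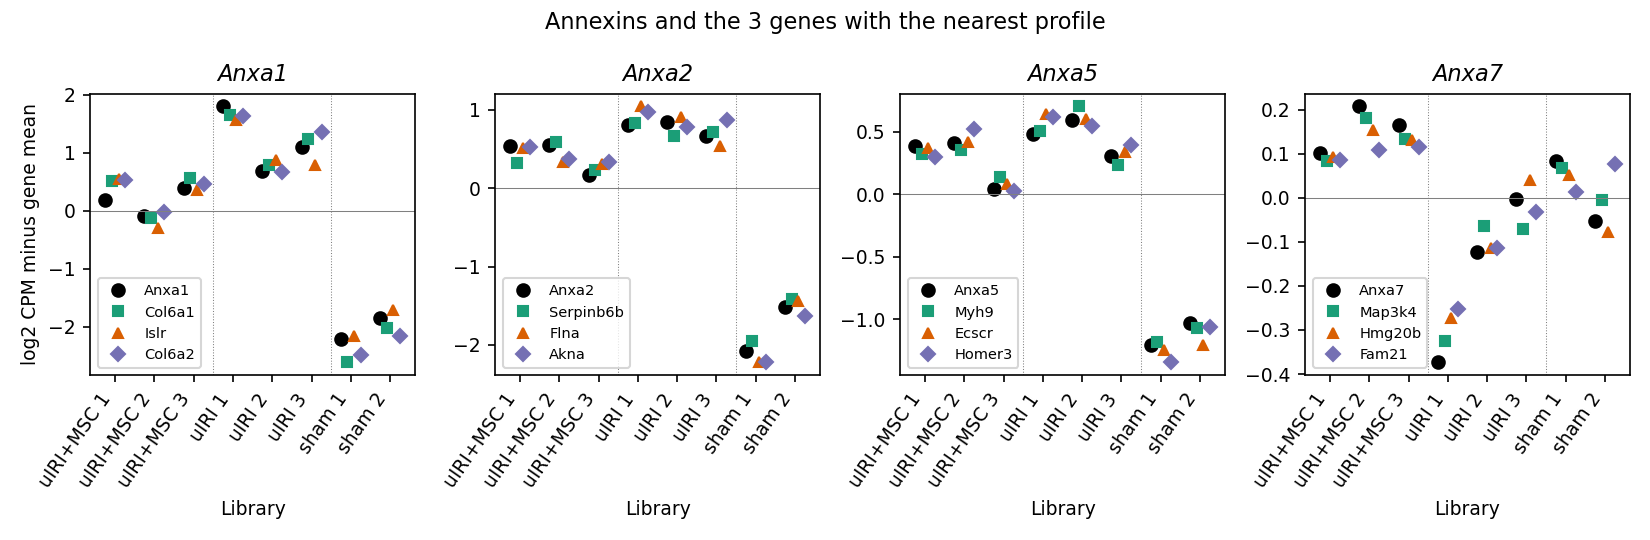
Log2 CPM minus the gene's mean over 8 libraries, for Anxa1, Anxa2, Anxa5 and Anxa7 (black circles) and the 3 genes nearest to each (coloured symbols). Dotted lines part the groups. Anxa1 and its neighbours have their highest point in uIRI 1, and Anxa7 its lowest.

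Markers of tissues that dissection could carry along were few. Adrenal markers summed to at most 3.36 CPM, adipose markers to at most 1.93 CPM and skeletal muscle markers to at most 1.36 CPM in any library, with 0 counts throughout for Lep and Myh4. Endothelial and podocyte markers differed less between groups than the leukocyte markers, at 433 to 542 and 475 to 594 CPM in uIRI+MSC, 549 to 572 and 528 to 702 CPM in uIRI, and 461 to 527 and 443 to 560 CPM in sham. Thick limb and distal tubule markers summed to 1211 to 3269 CPM in uIRI+MSC, 2198 to 3507 CPM in uIRI and 10161 to 11909 CPM in sham. B cell markers were near 8 CPM or below in every library.

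Genes annotated over the annexin loci in GENCODE M21 can share reads with them where strand was not used, and the sources used here do not give the strand setting. Overlapping transcripts shared 3.07% or less of any member's exonic bases, and the most counted of them, Gm44036 over Anxa4, had 16 counts in all libraries together.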

How the data were processed

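The deposited table gives raw read counts per gene and FPKM for every library. The authors made both, and per the file headers the count columns are whole read counts, while the deposited FPKM divide by gene length and library total. Tools named in the submitters' processing notes are HISAT2 2.0.4, StringTie 1.3.3b, SAMtools 1.9, Bowtie2 2.2.6, FastQC 0.10.1 and edgeR 3.2.0, with the build GRCm38 and no roles. How reads matching more than 1 gene were counted is not stated.

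Tests used the counts in edgeR 4.0.16 (R 4.3.3). After filterByExpr (minimum count 10), 16576 of 34745 genes remained. The 3 groups were fitted together with TMM scaling and the quasi-likelihood test (5 residual degrees of freedom), with Benjamini-Hochberg adjustment over all tested genes at 0.05. SE is the absolute log2 change divided by the root of F. FPKM levels were compared only within a library, apart from a check of Anxa7. A mean FPKM of at least 5 over the libraries chose the candidates for nearest profiles. The fit was tested on simulated data for uIRI against sham alone, with far fewer changed genes than were called here. That run does not bear on the choice of scaling or on uIRI+MSC against uIRI. The members and lists were chosen with earlier results of these data known. Genes were named by rule: all 8 members, the 4 other annexins, up to 3 genes per list with the smallest p in uIRI against sham, S100a10, S100a11, S100a6, and the 3 nearest profiles per member. Pdcd6, Sri, Plg, Fpr3, Gas6 and Stab2 were added after their values were seen. Alternatives were DESeq2 1.42.0, limma-voom (limma 3.58.1), robust dispersions, other scalings and filters, only the 2 groups compared, a replicate block, and leaving out each library. Figures were drawn with matplotlib 3.10.9.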

Additional observations from a re-analysis of the deposited data

How the results depend on the processing

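Over 24 annexin results (8 genes in 3 comparisons) and 17 alternatives, 384 of 408 values kept their direction and their side of the threshold. The 12 rises against sham, of Anxa1 to Anxa6, kept both under every alternative run. Scaling by library size alone turned Anxa7 in uIRI against sham to 0.49, and Anxa11 to 0.24 in uIRI against sham and 0.089 in uIRI+MSC against sham. In uIRI+MSC against uIRI, where neither gene passed, leaving out a library gave -0.078 to 0.0029 for Anxa4 and -0.085 to 0.043 for Anxa11. In that comparison DESeq2 called 1364 genes and 1 annexin (Anxa1), where edgeR called 0, and the cause was not tested. Leaving out a library gave 0 to 8 called genes there, the 8 without uIRI 1, and 3938 to 6914 genes in uIRI+MSC against sham, in place of 7029, the lowest without sham 1. The replicate block (7959 genes called in uIRI against sham, 5753 in uIRI+MSC against sham and 0 in uIRI+MSC against uIRI) ended the calls of Anxa11 and no other annexin call. Replicate numbers are not stated to pair samples, and deviations of same-numbered libraries correlated at -0.21 to 0.11. A fit with 1 sham library left takes its spread from the uIRI and uIRI+MSC libraries. The 8 annexins had at least 147 counts in every library, while Fpr1, Fpr2, Plg, Anxa8 and Anxa13 rest on few counts.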
